A study of Mus musculus with 18 samples.

Results

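The 8 mucin genes *Muc1*, *Muc2*, *Muc4*, *Muc5ac*, *Muc5b*, *Muc6*, *Muc13* and *Muc20*, out of 31201 gene names in the deposited tables, were followed through all clusters of 2 single-cell datasets of the adult mouse stomach. They were taken by name, and all 8 were found in both datasets. The study profiled cells from C57BL/6J wild-type mice aged 10 weeks with Quartz-Seq2, a plate method that counts unique molecular identifiers (UMIs), so that each captured molecule is counted once. Dataset 1 held cells of the corpus, the acid-producing body of the stomach, and of the antrum, its distal part, and its 2 pools (tube1 and tube2) filled 3 plates each. Dataset 2 held corpus cells prepared with a changed protocol, and its 2 pools (K and T) filled 6 plates each. Every pool combined 3 mice and was handled by 1 of 2 operators, so animal and operator cannot be told apart, and no group carried a treatment or an altered allele.

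Mucins are large, heavily O-glycosylated proteins. The secreted gel-forming mucins *Muc2*, *Muc5ac*, *Muc5b* and *Muc6* build the mucus gel, with *Muc5ac* known as the product of surface pit cells, *Muc6* as that of mucous neck and antral gland cells, *Muc2* as that of intestinal goblet cells and *Muc5b* as that of airway and salivary glands. The membrane mucins *Muc1*, *Muc4*, *Muc13* and *Muc20* stay anchored at the apical cell surface and form part of its glycocalyx.

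Dataset 1 held 491 cells in 15 clusters with a median of 38757 UMIs per cell, and dataset 2 held 3993 cells in 20 clusters with a median of 31020. The clusters and their names were the authors'. They were built from these same counts, and *Muc5ac* and *Muc6* were among the genes used to name them, so the p-values below describe how far apart the clusters lie. UMIs were summed per cluster and pool, and levels are given as counts per 1000000 UMIs (CPM) after scaling by TMM factors. Pools are always given in the order tube1, tube2 and K, T. Because the 3′-end UMIs count molecules, levels were also set side by side between genes, but whether all genes were captured equally was not tested. Labels did not tie single cells of dataset 1 to corpus or antrum, so region is known only through the cluster. By marker lists without mucins, cluster 5-7 of dataset 1 led in the enterocyte list with 525.5 UMIs per 10000 and is called duodenal-like. The antrum pre-pit cluster 6 led in the goblet list with 46.1 UMIs per 10000, while the pre-pit cluster 4 of dataset 2 led in the neck list, in which its *Tff2* stood highest. In cluster 6, 2 of the 32 cells held 99.9% of the *Tff3*, 94.2% of the *Clca1* and 70.9% of the *Spink4* UMIs of the goblet list.

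In the GRCm39 assembly the 4 secreted mucin genes lay in 1 group on chromosome 7, in the order *Muc6* (141213373 to 141241641, minus strand), *Muc2* (141276583 to 141308430, plus strand), *Muc5ac* (141342709 to 141372968, plus strand) and *Muc5b* (141392807 to 141426821, plus strand). *Muc6* and *Muc2* pointed away from each other across 34941 bases, and 34278 bases separated *Muc2* from *Muc5ac*. Of the membrane genes, 3 lay on chromosome 16, *Muc4* at 32555015 to 32602754 on the plus strand, *Muc20* at 32597793 to 32617831 on the minus strand and *Muc13* at 33614407 to 33640304 on the plus strand. *Muc1* lay apart, on chromosome 3 at 89136354 to 89140688. *Muc4* and *Muc20* overlapped by 4962 bases on opposite strands in the annotation used for positions, a later release than the 1 used for counting. Whether counting used the strand is not given in the sources used here, so their counts are uncertain against each other.

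Promoter windows of 300 bases, 250 before and 50 after the annotated start, were found in RefSeq (build GRCm38.p6) for 6 of the 8 genes. Those of *Muc6* and *Muc2* are shown as the divergent neighbours found in different cells, *Muc1* as the membrane gene found in nearly all mucous cells, and the downstream 1 of the 2 *Muc13* windows as the gene of the duodenal-like cluster. Capitals mark matches on either strand to TATAAA, to a GATA motif (AGATAA, or else the form TGATAA), to TTTATG (a CDX motif), to GTTAAT (an HNF1 half-site) and to GGGCGG (a GC box).
*Muc6*, chr7:141655344-141655643, minus strand: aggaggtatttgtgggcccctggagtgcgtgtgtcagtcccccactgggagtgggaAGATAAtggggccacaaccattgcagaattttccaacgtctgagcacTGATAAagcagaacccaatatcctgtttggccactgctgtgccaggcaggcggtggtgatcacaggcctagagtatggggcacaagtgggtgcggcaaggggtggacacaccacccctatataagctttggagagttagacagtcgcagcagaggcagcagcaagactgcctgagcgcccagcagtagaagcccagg
*Muc2*, chr7:141690090-141690389, plus strand: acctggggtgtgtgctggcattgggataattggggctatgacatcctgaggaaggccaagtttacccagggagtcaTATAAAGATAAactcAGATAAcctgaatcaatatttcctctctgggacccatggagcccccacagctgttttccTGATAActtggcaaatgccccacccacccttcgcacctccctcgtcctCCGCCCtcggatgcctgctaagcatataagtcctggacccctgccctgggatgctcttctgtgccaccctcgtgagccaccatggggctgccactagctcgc
*Muc1*, chr3:89228806-89229105, plus strand: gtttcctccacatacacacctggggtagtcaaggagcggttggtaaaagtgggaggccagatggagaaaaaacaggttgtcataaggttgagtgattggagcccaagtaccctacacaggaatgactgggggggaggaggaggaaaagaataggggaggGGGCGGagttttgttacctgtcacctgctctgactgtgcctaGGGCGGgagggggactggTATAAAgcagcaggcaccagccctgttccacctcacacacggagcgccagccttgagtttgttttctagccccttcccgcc
*Muc13*, chr16:33794239-33794538, plus strand: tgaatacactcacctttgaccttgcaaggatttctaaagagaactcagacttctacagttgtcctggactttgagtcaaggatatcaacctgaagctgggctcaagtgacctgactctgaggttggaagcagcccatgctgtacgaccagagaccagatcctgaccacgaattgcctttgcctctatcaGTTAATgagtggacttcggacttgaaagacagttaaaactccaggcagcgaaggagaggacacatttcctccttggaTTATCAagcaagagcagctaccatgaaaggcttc

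The *Muc6* window held 2 GATA matches and no TATAAA. The *Muc2* window held 3 GATA matches, of which the first shares its first base with the last base of a TATAAA match, and 1 GC box on the other strand. *Muc1* had a TATAAA match starting 31 bases before the start and 2 GC boxes, and the *Muc13* window shown had 1 HNF1 half-site and 1 GATA match. The upstream *Muc13* window, not shown, had 1 CDX match on the other strand, 180 bases before its start. In all 32851 windows, TATAAA was found in 13.6%, a GATA motif in 18.6%, the CDX motif in 11.9%, the HNF1 half-site in 7.10% and the GC box in 35.7%. These matches are letters in a window and were not tested for binding.

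Which mucins the stomach cells carried differed mainly by cell type. In dataset 2, which held corpus cells alone, *Muc5ac* contributed 52.6%, *Muc1* 26.4% and *Muc6* 20.8% of the 310894 UMIs of the 8 genes. The other 5 genes were sparse there, with 297 UMIs of *Muc4*, 210 of *Muc5b*, 47 of *Muc2*, 32 of *Muc20* and 24 of *Muc13*. In dataset 1, *Muc5ac* contributed 80.7%, *Muc1* 8.96%, *Muc6* 5.06%, *Muc13* 3.69% and *Muc2* 1.32% of the UMIs. *Muc5b* had 16 UMIs and *Muc20* 3 in all of dataset 1, too few for any statement about their cell type there.

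**Figure D1:**
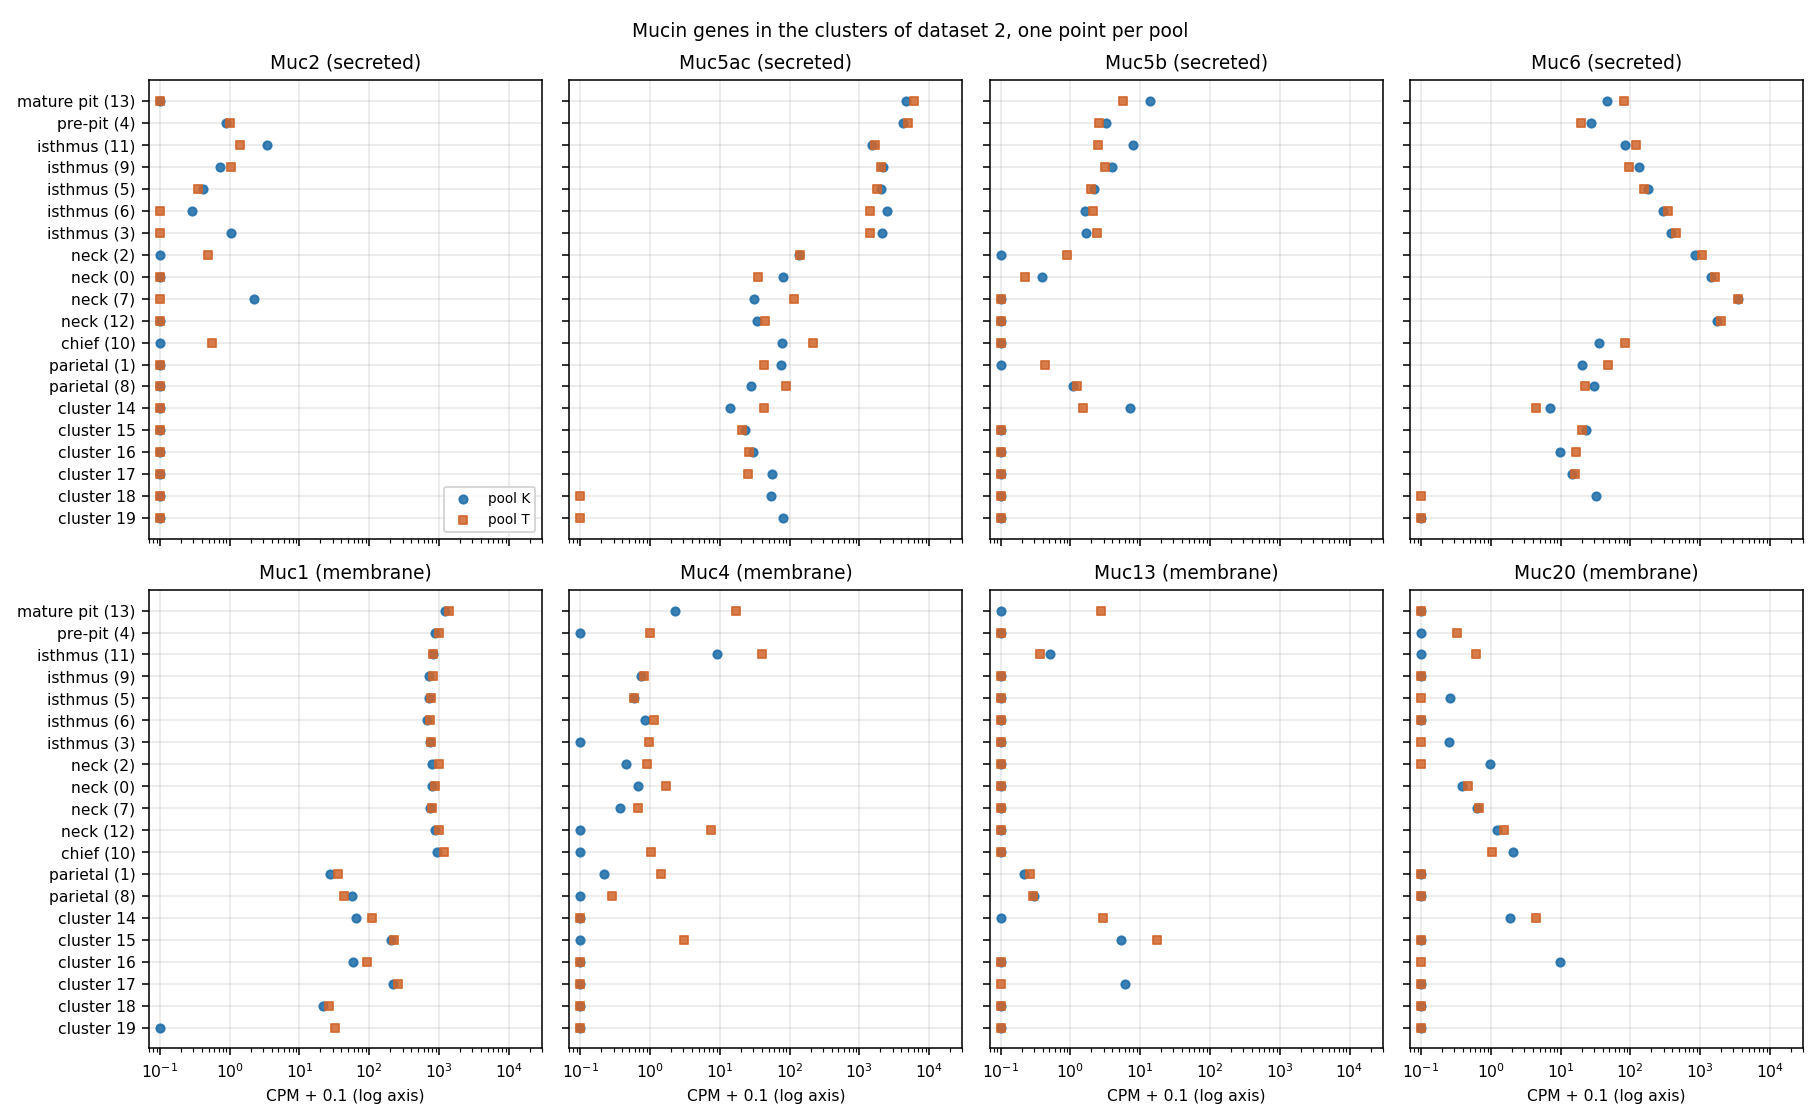
Levels of the 8 mucin genes in the 20 clusters of dataset 2 (corpus), as CPM + 0.1 on a log axis, with 1 point per pool. *Muc5ac* is highest in mature pit and pre-pit cells, *Muc6* in the 4 neck clusters with 843.6 to 3514 CPM, and *Muc1* stays between 674.1 and 1402 CPM in the pit, isthmus, neck and chief clusters.

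*Muc5ac* followed the pit lineage in the corpus. Its level was 4683 and 6064 CPM in mature pit cells and 4278 and 4897 CPM in pre-pit cells, while the 10 sums of the 5 isthmus progenitor clusters ran from 1405 to 2509 CPM. Pre-pit cells were thus above every isthmus sum, whereas mature pit and pre-pit cells overlapped. Pre-pit exceeded isthmus by a log2 difference of 1.30 ± 0.27 (SE; 2.47-fold, adjusted p = 3.1e-04, edgeR's quasi-likelihood test with Benjamini-Hochberg adjustment, as for all adjusted p below), which missed the threshold without pool T (adjusted p = 0.0768). The isthmus UMIs were uneven over cells. In cluster 3, 34 of 339 cells held at least 50% of the *Muc5ac* UMIs and 91 had none. The median cell held from 6 UMIs (cluster 3) to 42 (cluster 9) in the isthmus clusters, against 107 in pre-pit cells. Between mature pit and pre-pit cells the log2 difference was 0.23 ± 0.38 (adjusted p = 0.819).

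*Muc6* ran the other way. It was 843.6 and 1064 CPM in neck cluster 2, 1413 and 1634 in cluster 0, 3459 and 3514 in cluster 7 and 1745 and 1996 in cluster 12, and 83.1 to 453.7 CPM in the isthmus sums. Every neck sum lay above every isthmus sum, and the order 7, 12, 0, 2, followed by isthmus clusters 3, 6 and 5, was free of overlap between neighbours over the pools. Neck exceeded isthmus by a log2 difference of 3.18 ± 0.12 (9.09-fold, adjusted p = 7.7e-22). Pre-pit cells, at 27.7 and 19.9 CPM of *Muc6*, lay 8.16-fold below the isthmus (log2 difference -3.03 ± 0.26, adjusted p = 4.1e-11), and mature pit cells were again higher than pre-pit cells, at 45.7 and 81.6 CPM (log2 difference 1.45 ± 0.32, adjusted p = 0.00243). In mature pit cells 3 of the 121 cells held at least 50% of the *Muc6* UMIs and 80 had none, and without pool T the difference from pre-pit cells was 0.72 (adjusted p = 0.598).

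*Muc5b*, far below *Muc5ac* per molecule, was also lower in neck than in isthmus cells. Its UMIs numbered 127 in the isthmus and 4 in the neck, with 1.51 to 7.78 CPM against 0 to 0.794 CPM, and the groups did not overlap (log2 difference -4.73 ± 0.70, adjusted p = 1.2e-06). Mature pit cells had 13.6 and 5.64 CPM against 3.13 and 2.49 in pre-pit cells (log2 difference 1.74 ± 0.59, adjusted p = 0.0613). With the pool as a block this last difference passed the threshold (1.71, adjusted p = 0.0232). *Muc2* was near the floor everywhere in dataset 2, with 3.28 CPM, from 8 UMIs, as its highest sum.

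*Muc1*, a signalling membrane mucin of simple epithelia, varied little among mucous cells. It was 1198 and 1402 CPM in mature pit cells, 866.2 and 996.4 CPM in pre-pit cells and 926.0 and 1195 CPM in chief cells, the pepsinogen-secreting cells of the gland base. The isthmus sums ran from 674.1 to 823.2 CPM and the neck sums from 737.2 to 994.2 CPM, so that neck overlapped both isthmus and chief. The differences that passed the test were small, with a log2 difference of 0.48 ± 0.15 for mature pit against pre-pit (adjusted p = 0.0318), 0.30 ± 0.11 for pre-pit against isthmus (adjusted p = 0.0407), 0.18 ± 0.07 for neck against isthmus (adjusted p = 0.0297) and 0.32 ± 0.12 for chief against neck (adjusted p = 0.0299). All 4 missed the threshold without pool K, with adjusted p from 0.0809 to 0.218, and without pool T, with adjusted p from 0.3299 to 0.458. Scaled by library totals without TMM the first 3 also missed it, and the chief against neck value turned to -0.46 (adjusted p = 5.9e-04). Parietal cells, the acid-secreting cells, stood apart with 27.1 to 56.5 CPM, 19.1-fold below the isthmus (log2 difference -4.26 ± 0.12, adjusted p = 1.2e-26).

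*Muc4* in the corpus rested on few cells. Isthmus cluster 11 had 9.01 and 40.6 CPM, mature pit cells 2.18 and 16.9 CPM and pre-pit cells 0 and 0.904 CPM, and in each cluster pool T was the higher. Mature pit exceeded pre-pit cells by a log2 difference of 4.27 ± 1.09 (43 against 4 UMIs, adjusted p = 0.00951), which missed the threshold without pool T (adjusted p = 0.486). In cluster 11, 7 of the 109 cells of pool T, picked after their values were seen as those with 10 or more *Muc4* UMIs, held 122 of its 155 *Muc4* UMIs, and likewise 97 of its 108 *Krt20*, 117 of its 336 *Krt7* and all 106 of its *Clca1* UMIs, but 4 of its 6321 *Muc5ac* UMIs. *Krt7* and *Krt20* were the antrum pit markers of this study, and their part in the *Muc4* values was not tested. In the mature pit cluster of pool T, 1 cell held 16 of the 39 *Muc4* UMIs there. *Muc20* had 16 UMIs in neck cells against 4 in the isthmus (log2 difference 2.84 ± 0.75, adjusted p = 0.00191), and missed the threshold without pool K (adjusted p = 1.00) or pool T (adjusted p = 0.0529). *Muc13* was at 0 in all neck and chief sums of dataset 2 and reached 17.5 CPM, from 6 UMIs, in cluster 15, which led in the tuft cell list.

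All 7 comparisons in dataset 2 were made in 1 fit of 38 sums, in which 7 of the 8 members passed the filter on low counts and *Muc2* did not. Mature pit against pre-pit called 3 of these 7 higher (*Muc1*, *Muc4*, *Muc6*) and none lower, where 10.2% of all 14333 genes tested were called. For pre-pit against isthmus, 2 were higher (*Muc1*, *Muc5ac*) and 1 lower (*Muc6*), against 26.9% of all genes. Neck against isthmus gave 3 higher (*Muc1*, *Muc6*, *Muc20*) and 2 lower (*Muc5ac*, *Muc5b*), in a comparison that called 60.5% of all genes. *Muc5ac* in neck cells was 30.8 to 139.4 CPM, with a log2 difference of -4.79 ± 0.23 from the isthmus (adjusted p = 1.2e-18).

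Chief cells against the 4 neck clusters called *Muc6* lower and *Muc1* and *Muc5ac* higher, beside 36.9% of all genes. *Muc6* was 35.6 and 84.6 CPM in chief cells, below every neck sum (log2 difference -4.81 ± 0.28, 28.1-fold, adjusted p = 3.2e-16). *Muc5ac*, at 78.6 and 218.9 CPM in chief cells, overlapped the neck sums (1.18 ± 0.35, adjusted p = 0.00657), with 2 of the 180 chief cells holding at least 50% of its UMIs. It missed the threshold without TMM factors (0.40, adjusted p = 0.331), without pool T (0.42, adjusted p = 0.607) and in DESeq2 (1.12, adjusted p = 0.0662). Parietal against isthmus cells called 4 members lower (*Muc1*, *Muc5ac*, *Muc5b*, *Muc6*) and none higher, in a comparison with 71.1% of all genes called. *Muc4* (10 against 206 UMIs) missed the threshold in the main fit (-2.14, adjusted p = 0.0544). It passed with the pool as a block (-2.04, adjusted p = 0.00480) and with no filter on low counts.

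Within the neck, cluster 12, which the study described by its *Cblif* (gastric intrinsic factor, a chief cell product), was set against clusters 0, 2 and 7. No member was called there in the main edgeR fit or in DESeq2, 1 having an unadjusted p under 0.05 (*Muc5ac*), where 7.69% of all genes were called. With no filter on low counts *Muc5ac* and *Muc4* passed. Over all alternatives the lowest adjusted p was 3.6e-09 for *Muc5ac* (log2 differences from -1.22 to -0.89) and 0.0136 for *Muc4* (from -3.47 to 2.96). The *Muc6* level of cluster 12, 1745 and 1996 CPM, fell inside the range of the other neck clusters (log2 difference 0.12 ± 0.19, adjusted p = 0.837). Within the isthmus, clusters 5 and 6, the highest in the dividing-cell list, were set against 3, 9 and 11, with 25% of all genes called. *Muc6* alone among the members was called, at 156.0 to 346.6 CPM against 83.1 to 453.7 CPM (log2 difference 0.44 ± 0.16, adjusted p = 0.0373), with overlapping groups. It missed the threshold in DESeq2 (0.41, adjusted p = 0.218), without pool K (adjusted p = 0.271) and without pool T (adjusted p = 0.174). *Muc4* passed with the pool as a block (-1.55, adjusted p = 0.0360, against -1.50 and 0.238).

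**Figure D2:**
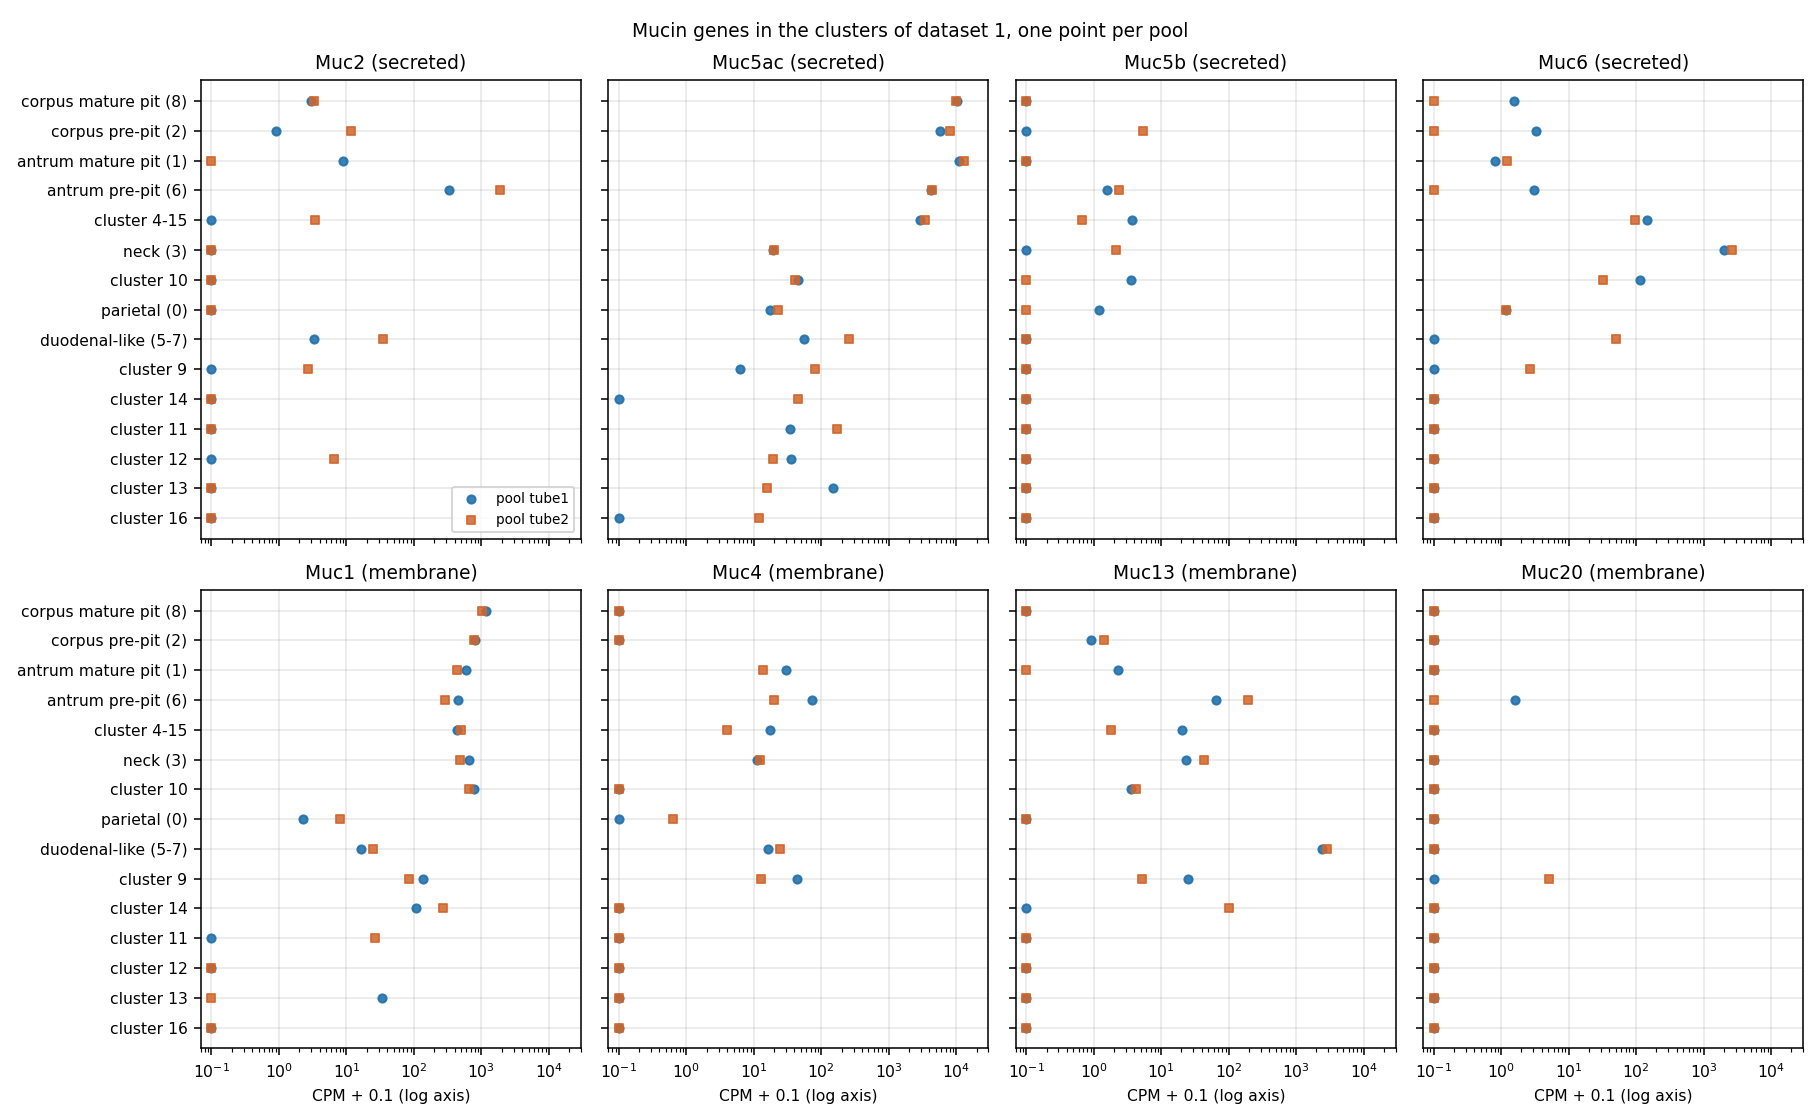
Levels of the 8 mucin genes in the 15 clusters of dataset 1 (corpus and antrum), as CPM + 0.1 on a log axis, with 1 point per pool. *Muc13* reaches 2410 and 2877 CPM in the duodenal-like cluster 5-7 while *Muc5ac* and *Muc1* are low there, *Muc2* is highest in the antrum pre-pit cluster 6, and *Muc4* is at 0 in both corpus pit clusters.

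Dataset 1 allowed antrum, corpus and duodenal-like cells to be compared on the same plates. Mature antrum pit cells carried *Muc5ac* at 10916 and 13010 CPM and mature corpus pit cells at 10129 and 9793 CPM, which did not overlap but differed by a log2 value of 0.26 ± 0.40 (adjusted p = 0.957). *Muc1* differed by region. It was 599.6 and 433.5 CPM in mature antrum pit cells against 1161 and 1025 CPM in mature corpus pit cells (log2 difference -1.08 ± 0.25, adjusted p = 0.0150), and 453.3 and 284.0 CPM in antrum against 789.4 and 776.2 CPM in corpus pre-pit cells (-1.07 ± 0.26, adjusted p = 0.0176). In both stages the antrum was lower, 2.11-fold and 2.10-fold, and no pool overlapped, although each difference missed the threshold when either pool was left out (adjusted p from 0.126 to 0.692).

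Within dataset 1, *Muc4* was found in antrum pit clusters and had 0 UMIs in the corpus pit clusters. In dataset 2, by contrast, corpus mature pit cells held 43 *Muc4* UMIs (2.18 and 16.9 CPM), and pool T there lay above tube2 of the mature antrum pit cells. Mature antrum pit cells had 29.8 and 13.5 CPM, from 53 UMIs, and corpus mature pit cells of the same dataset had none, so that the antrum was at least 10.2-fold higher against a floor of 3 UMIs over the group (adjusted p = 0.0167). Antrum pre-pit cells had 71.8 and 20.1 CPM, from 57 UMIs, against 0 in corpus pre-pit cells, at least 34.3-fold higher (adjusted p = 4.2e-04). The first missed the threshold without tube1 (adjusted p = 0.641) or tube2 (0.199) and the second without tube1 (0.308). *Muc4* UMIs were found in 16 of 49 mature and 13 of 32 pre-pit antrum cells, and in 0 of 26 and 0 of 46 corpus cells, which allow up to 13.2% and 7.71% of cells with a UMI (upper 95% Clopper-Pearson bounds, covering counting error only). The bounds limit cells with a captured UMI at these depths, not cells that express the gene, and cells of a pool are not independent replicates. Thinned to 10000 UMIs per cell, the antrum shares were 12.2% and 21.9%, against 0 of 57 parietal cells, taken as background (median 64127 UMIs per cell, against 60691 and 38964.5 in the antrum clusters).

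*Muc5b* and *Muc20* did not pass the filter on low counts in dataset 1. Of the 6 members tested, mature antrum against mature corpus pit cells called 1 higher (*Muc4*) and 1 lower (*Muc1*), where 2.41% of all 11845 genes were called. Antrum against corpus pre-pit called *Muc2*, *Muc4* and *Muc13* higher and *Muc1* lower, beside 2.99% of all genes. *Muc2*, the goblet cell mucin, was 326.2 and 1863 CPM against 0.800 and 11.8 CPM (log2 difference 7.69 ± 0.77, adjusted p = 8.0e-07), and *Muc13* was 65.8 and 194.5 CPM against 0.800 and 1.31 CPM (6.71 ± 0.91, adjusted p = 4.9e-05). DESeq2 gave an adjusted p of 0.252 for *Muc2*.

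Those *Muc2* and *Muc13* values came from 2 of the 32 cells. A cell of tube1 held 218 and a cell of tube2 held 833 *Muc2* UMIs, together all 1051 of the cluster, and the other 30 cells had 0. The same 2 cells held 97.7% of the cluster's *Muc13* and 0 of its 4716 *Muc5ac* UMIs. They also held 99.9% of the UMIs of *Tff3*, the intestinal trefoil peptide, 99.9% of *Zg16*, 99.0% of *Fcgbp* and 94.2% of *Clca1*, goblet cell mucus proteins, and 0.0621% of those of the pit gene *Gkn1*. The deposited annotation called the tube2 cell a pit cell and gave the tube1 cell no label. Without these cells, a choice made after their values were seen, *Muc2* was at 0 UMIs, *Muc13* gave a log2 difference of 1.32 (adjusted p = 0.942), and *Muc1* (-1.04, adjusted p = 0.0221) and *Muc4* (8.02, adjusted p = 4.6e-04) still passed. *Fcgbp* (4.04, adjusted p = 0.00882) and *Clca1* (6.92, adjusted p = 6.4e-05) also still passed, and both were found in mature antrum pit cells as well. *Tff3* (2.80, adjusted p = 0.574) and *Zg16* (2.52, adjusted p = 0.680) no longer did.

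**Figure D3:**
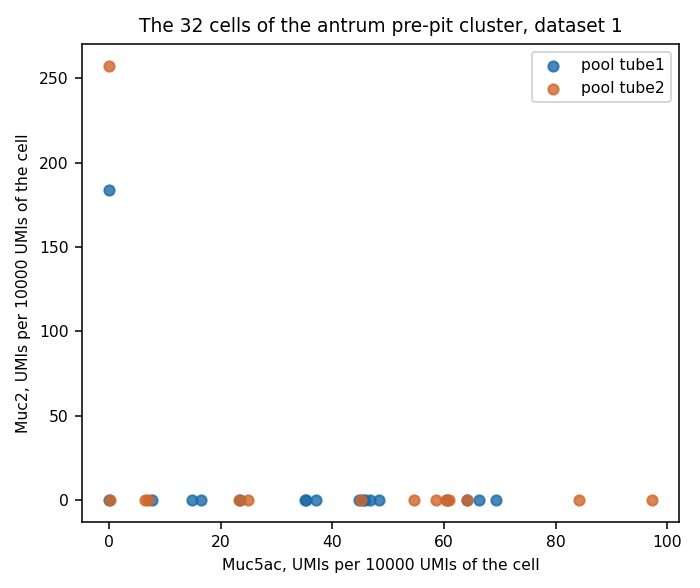
The 32 cells of the antrum pre-pit cluster of dataset 1, with *Muc5ac* against *Muc2* as UMIs per 10000 UMIs of the cell. The 2 cells with *Muc2*, at 183.6 and 257.6, have no *Muc5ac* UMI, and the other 30 cells lie along the axis at 0 *Muc2*.

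Maturation within a region was compared next. In the antrum, mature pit cells had 10916 and 13010 CPM of *Muc5ac* against 4164 and 4322 CPM in pre-pit cells (log2 difference 1.495 ± 0.40, 2.82-fold, adjusted p = 0.0195), with pools far apart. The call was lost without TMM factors (1.18, adjusted p = 0.0562), in DESeq2 (1.46, adjusted p = 0.0977) and without tube1 (0.325) or tube2 (0.348). *Muc2* and *Muc13* were lower in mature cells, by -7.64 ± 0.75 and -6.37 ± 0.84, again through the same 2 cells, since without them *Muc13* was at -0.97 (adjusted p = 0.890). In all, 3 of the 6 members tested were called, beside 8.05% of all genes. In DESeq2 only *Muc13* passed (adjusted p = 0.00498), with *Muc2* at -8.02 (adjusted p = 0.0935). The corpus gave no called member in edgeR, none at an unadjusted p under 0.05 and none in DESeq2, beside 6.82% of all genes, with *Muc5ac* at 10129 and 9793 CPM against 5645 and 7977 CPM (0.55 ± 0.40, adjusted p = 0.506) and *Muc1* at 1161 and 1025 CPM against 789.4 and 776.2 CPM (0.48 ± 0.25, adjusted p = 0.305). The difference between the regions in this step was 0.95 ± 0.56 for *Muc5ac* and -0.0043 ± 0.37 for *Muc1* (both adjusted p = 1.0), and 0 members passed in the main edgeR fit or in DESeq2, 1 (*Muc2*) having an unadjusted p under 0.05, where 0.0338% of all genes passed. *Muc2* passed with no filter on low counts (lowest adjusted p over all alternatives 3.1e-04), with all its antrum pre-pit UMIs in the same 2 cells.

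The duodenal-like cluster carried a different set. *Muc13*, a membrane mucin of the intestinal surface, was 2410 and 2877 CPM there, with at least 1 UMI in all 70 cells, against 2.18 and 0 CPM in mature antrum pit cells and 0 in mature corpus pit cells. It was at least 1198-fold higher than in mature corpus pit cells (adjusted p = 1.1e-11), and the ratio of UMIs to mature antrum pit cells, which had 3, was 2070 (95% counting interval 708 to 10042, adjusted p = 3.0e-12). *Muc3*, another intestinal membrane mucin outside the 8 members, had 1856 and 2008 CPM in this cluster. *Muc2* was 3.26 and 35.1 CPM, with 25 of its 27 UMIs in 1 cell. Its difference from mature corpus pit cells was 2.96 ± 1.58 (adjusted p = 0.157), and it passed with the pool as a block (2.59, adjusted p = 0.0229).

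The gastric mucins were low in these cells. *Muc1* was 16.3 and 24.3 CPM, 23.7-fold below mature antrum pit cells (log2 difference -4.56 ± 0.38, adjusted p = 1.1e-10) and 49.9-fold below mature corpus pit cells (-5.64 ± 0.38, adjusted p = 1.9e-12). *Muc5ac* was 55.4 and 256.9 CPM, 70.7-fold and 58.9-fold lower (-6.14 ± 0.51, adjusted p = 5.7e-11, and -5.88 ± 0.50, adjusted p = 1.3e-10). A single cell of tube2 held 161 of its 207 *Muc5ac* and 35 of its 37 *Muc6* UMIs, next to 469 of *Fabp1* and 720 of *Gkn1*. *Muc6* was called higher in both comparisons (4.96 ± 1.00, adjusted p = 2.5e-04, and 5.14 ± 1.20, adjusted p = 0.00127) with 0 and 50.02 CPM in the pools. Without tube2 the *Muc6* values turned to -2.24 and -3.11, and without the cells of 10 or more *Muc5ac* or *Muc6* UMIs they were 1.05 and 1.22 (adjusted p = 0.680 and 0.681).

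*Muc4*, at 16.3 and 24.3 CPM, overlapped the antrum (-0.07 ± 0.65, adjusted p = 1.0) and was at least 9.61-fold above mature corpus pit cells (adjusted p = 0.00275, and 0.129 without tube2). Of the 6 members tested, 2 were higher and 2 lower than in mature antrum pit cells, beside 37.9% of all genes called, and 3 were higher and 2 lower than in mature corpus pit cells, beside 36.6%.

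Neck cells of dataset 1 against corpus pre-pit cells called 4 of 6 members, beside 19.8% of all genes. *Muc6* was 1986 and 2621 CPM against 3.20 and 0 CPM (log2 difference 10.06 ± 0.57, adjusted p = 4.7e-12) and *Muc5ac* 18.8 and 19.6 against 5645 and 7977 CPM (-8.45 ± 0.59, 349.6-fold lower, adjusted p = 1.9e-11). *Muc5ac* in neck cells was at the level of parietal cells, 17.3 and 23.0 CPM. *Muc4*, at 10.98 and 12.4 CPM from 19 UMIs against 0, was at least 7.95-fold higher (adjusted p = 0.0101, 0.181 without tube1 and 0.153 without tube2). *Muc13*, at 23.5 and 43.4 CPM, was called higher (4.89 ± 1.11, adjusted p = 0.00223), but 3 of 45 cells held 98.2% of its UMIs. It missed the threshold without the 2 cells of 10 or more UMIs (2.49, adjusted p = 0.281), and also without tube1 or without tube2. The deposited annotation gave those 2 cells an earlier label of *Lgr5*+/*Axin2*+ stem cells. They had 0 *Muc6* UMIs and held 1 and 6 of the 19 *Muc4* UMIs.

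**Figure D4:**
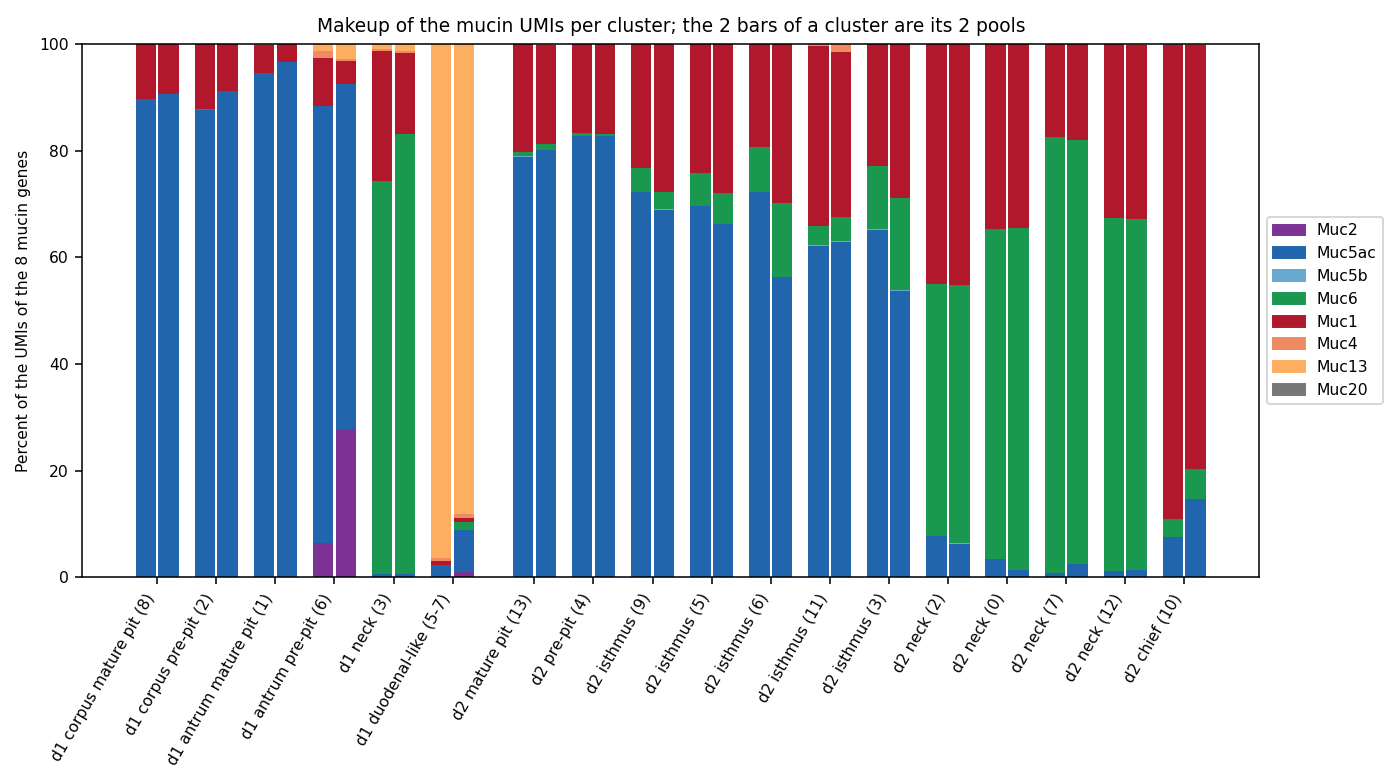
Share of each mucin in the UMIs of the 8 genes, in percent, for the named clusters of dataset 1 (d1) and dataset 2 (d2), with 1 bar per pool. *Muc5ac* fills most of the pit bars, *Muc13* the duodenal-like bars and *Muc1* the chief bars. *Muc6* fills most of the neck bars except in cluster 2 of dataset 2, where it is 47.3% and 48.4% and *Muc1* 44.9% and 45.2%.

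Secreted mucins made up most of the member UMIs of pit, isthmus and neck cells and a minor part in the duodenal-like and chief clusters. *Mucl3*, outside the members and not counted, had 23224 and 32617 UMIs in mature pit cells of dataset 2, against 10919 and 17453 member UMIs. In neck cluster 7 of dataset 2 it had 224 and 251 UMIs, against 15788 and 7614 member UMIs. Shares with *Mucl3* counted were not computed. In dataset 1 the secreted share was 94.5% and 96.7% in mature antrum pit cells, 89.7% and 90.5% in mature corpus pit cells, 88.4% and 92.5% in antrum pre-pit cells and 87.7% and 91.1% in corpus pre-pit cells. It was 74.3% and 83.2% in neck cells and 2.34% and 10.5% in the duodenal-like cluster. In tube2 of that cluster, the single cell with 161 *Muc5ac* and 35 *Muc6* UMIs held most of the 253 secreted UMIs, and as a mean over cells the tube2 share was 5.68%. Both mature antrum pools lay above those of the other clusters named here, and the 2 pre-pit clusters overlapped.

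In dataset 2 the share was 83.3% and 83.1% in pre-pit, 79.8% and 81.2% in mature pit, 76.7% and 70.9% in isthmus and 70.0% and 67.4% in neck cells. Chief cells were at 10.96% and 20.3%, with *Muc1* as nearly all of the rest. The few member UMIs of parietal cells were 68.3% and 71.4% secreted. With 2 pools a side no permutation test can pass, so these shares are given without one.

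**Figure D5:**
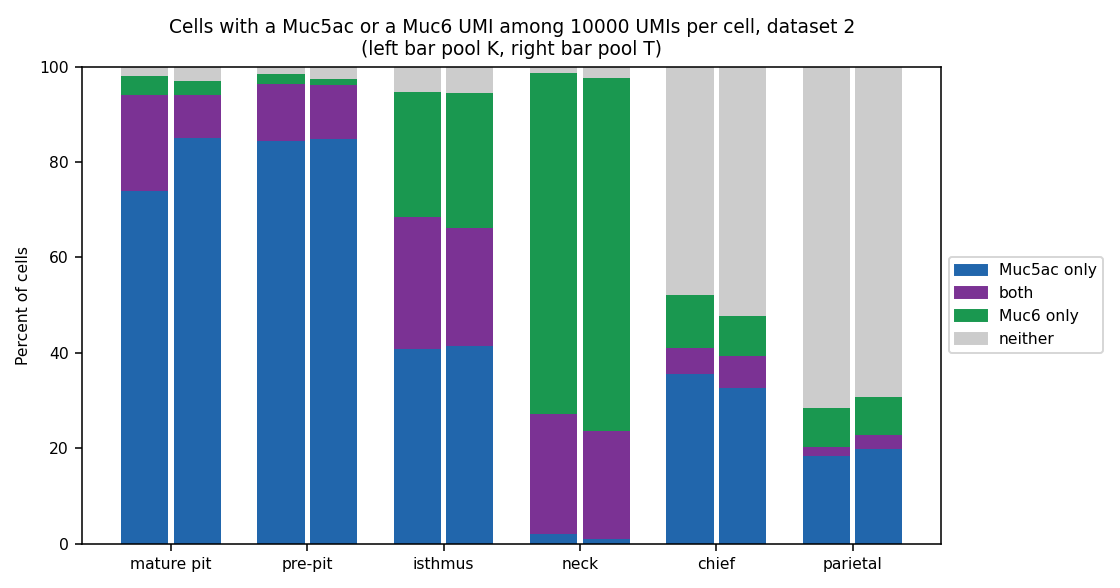
Percent of dataset 2 cells with a *Muc5ac* UMI, a *Muc6* UMI, both or neither after thinning every cell to 10000 UMIs, per cell type and pool. Cells with both are 27.5% and 24.6% of isthmus cells, 25.04% and 22.7% of neck cells and 2.01% and 2.98% of parietal cells.

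UMIs of the pit and the neck mucin were also counted together in single cells. After thinning to 10000 UMIs per cell, with 52 shallower cells of dataset 2 left out, 331 of 1279 isthmus cells (25.9%) and 296 of 1238 neck cells (23.9%) had both *Muc5ac* and *Muc6*, and the pools of these types overlapped. Both genes were found in 34 of 291 pre-pit cells (11.7%), 16 of 117 mature pit cells (13.7%) and 17 of 701 parietal cells (2.43%). The parietal share with both is no background for cells that make 1 of the genes, so parietal cells were used as background for each gene alone. *Muc5ac* was found in 23.1% and 18.1% of the cells of their 2 clusters and *Muc6* in 8.73% and 13.6%, at median depths of 45390.5 and 51291.5 UMIs before thinning, against 31337 to 50083 in the isthmus clusters.

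The isthmus clusters had *Muc5ac* in 59.4% to 78.0% and *Muc6* in 45.0% to 63.9% of cells, above both parietal values. In neck cells *Muc5ac* was found in 21.9% to 31.5% of cells by cluster. Cluster 2 was highest, and clusters 2 and 12 lay above both parietal values. At least 3 *Muc5ac* UMIs were found in 27 of 346 cells of neck cluster 2. The same held for 11 of 469 cells of cluster 0, 5 of 256 of cluster 7 and 2 of 167 of cluster 12. In parietal clusters 1 and 8 it held for 9 of 458 and 5 of 243 cells. How many of the isthmus or neck cells with both would be expected from background was not tested. Asking for at least 3 UMIs of each gene left 44 of 1279 isthmus cells (3.44%), 27 of 1238 neck cells (2.18%), 1 of 291 pre-pit cells (0.344%) and 2 of 701 parietal cells (0.285%). Without thinning the shares were higher, as for *Muc5ac* in pre-pit cells at 98.6% against 96.2%.

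Genes whose levels ran most alike were sought over the 19 clusters of dataset 2 (Pearson's r of log2(CPM + 1), mean of the pools, given as a description). *Muc6* was closest to *A4gnt* (r = 0.98), the enzyme that caps its glycans, with *Pga5* (0.97) and *Rassf10* (0.97), and over the 13 clusters of dataset 1 these gave 0.84, 0.86 and 0.94. *Muc5ac* was closest to *Gsta1* (0.99), *Sptssb* (0.98) and *Slc5a5* (0.98), with 0.91, 0.95 and 0.99 in dataset 1. *Muc1* was closest to *Qsox1* (0.96), *Csrp1* (0.95) and *Tbrg1* (0.95), with 0.45, 0.06 and 0.68 in dataset 1. *Muc4* went with *Clca1* (0.93), *Krt20* (0.91) and *Prss32* (0.89), with 0.55, 0.57 and 0.77 in dataset 1. *Muc5b* went with *Mlf2* (0.94), *Kcnf1* (0.91) and *Krt79* (0.90), but with -0.02, 0.12 and 0.24 in dataset 1, where it had 16 UMIs. Clusters share plates and depth, and *Muc2*, *Muc13* and *Muc20* had too few UMIs in dataset 2.

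The enzymes and partners of mucins were followed as 1 list of 36 genes, with 19 glycosyltransferases, 8 folding and secretory factors and 9 mucus partners. In mature antrum against mature corpus pit cells 4 of the 29 tested were higher and none lower, beside 2.41% of all genes called, with *Fcgbp*, an IgG Fc-binding mucus protein, at 463.7 to 641.3 CPM against 0, *Clca1* at 719.9 to 738.4 against 2.92 to 59.1 CPM and *Tff2*, a trefoil peptide, at 18923 to 22340 against 3691 to 6852 CPM. Neck against corpus pre-pit cells called 6 of 7 folding and secretory factors higher and 1 lower in dataset 1, where 19.8% of all genes were called. In dataset 2, neck against isthmus called 6 of 7 of them higher and none lower, in the comparison with 60.5% of all genes called, with a median log2 difference of 1.12 against -0.01 over all genes. Chief against neck cells called 16 of 30 tested lower and 5 higher, beside 36.9% of all genes (2699 higher and 2586 lower, but 784 and 8680 without TMM). They were led by *A4gnt*, at 28.9 to 35.8 against 491.6 to 1193 CPM (log2 difference -4.45 ± 0.19, adjusted p = 1.7e-19), *Gcnt1* (-4.25 ± 0.46) and *Galnt6* (-3.25 ± 0.25), enzymes of mucin-type O-glycans. The duodenal-like cluster had 18 of 29 lower and 5 higher than mature antrum pit cells, beside 37.9% of all genes called, with *Foxa3* (-7.01 ± 0.49), *Clca1* (-6.10 ± 0.81) and *Gcnt3* (-5.76 ± 0.38) furthest.

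Among 14 other mucin-family genes, 5 reached 10 UMIs in both pools of a cluster in dataset 1 and 3 in dataset 2. *Mucl3* was the most abundant, at 13185 and 11100 CPM in corpus mature pit cells of dataset 1 and 12639 and 14153 CPM in mature pit cells of dataset 2, above *Muc5ac* in the same cells. *Muc3a* had 23.9 and 60.4 CPM in antrum pre-pit cells. *Emcn*, an endothelial sialomucin, led in the clusters that led in the endothelial list, at 1663 and 1358 CPM and at 1420 and 1283 CPM. *Cd164*, a small sialomucin, was spread over the clusters, with 896.0 and 873.5 CPM at its highest in dataset 1. *Muc12*, *Muc15*, *Muc17*, *Mucl1* and *Mucl2* were not listed in either table.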

How the data were processed

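Single cells of the mouse stomach were sorted into 384-well plates and measured by Quartz-Seq2 on 18 plates, 6 for dataset 1 and 12 for dataset 2. The deposited tables hold whole-number UMI counts per gene and cell. To make them, the authors demultiplexed with bcl2fastq, aligned to GRCm39 with STAR and counted with Drop-seq tools against Gencode M27, then kept cells with at least 2500 genes and clustered them with Seurat. The deposited percent of mitochondrial UMIs per cell was computed by the authors and entered no test here. Cells came from a singlet gate that the authors checked under a microscope. A later removal of doublets is not given in the sources used here, and no doublet caller was run. Cluster names and pools were read from the deposited annotation, and all 491 and 3993 annotated cells matched their plate columns and pools. Cells on different plates share the well barcodes (296 distinct barcodes in dataset 1 and all 384 in dataset 2), so a cell was identified by plate and barcode.

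UMIs were summed per cluster and pool, leaving out clusters with under 5 cells in a pool (2 in dataset 1, 1 in dataset 2). With 2 pools a cluster, a gene's spread is estimated over all clusters of a dataset (13 and 19 residual degrees of freedom). Sums were tested with edgeR 4.0.16 (R 4.3.3; filterByExpr, TMM, quasi-likelihood test, Benjamini-Hochberg over 11845 and 14333 genes, called at an adjusted p under 0.05), after tests on simulated data. Alternatives were DESeq2 1.42.0, library totals without TMM, no filter, the pool as a block, and leaving out each pool. A further alternative, chosen after seeing the data, left out the cells of clusters 3, 5-7 and 6 with 10 or more UMIs of a member untypical of their cluster. The pools pair the sums, since 1 group of mice gave all cells of a pool. The correlation of same-pool deviations between clusters had a median of 0.00848 (-0.0409 to 0.0668) over 78 cluster pairs in dataset 1 and of 0.0547 (-0.0351 to 0.234) over 171 in dataset 2. Plate totals of kept UMIs ran from 2551126 to 4773020 in dataset 1 and from 10463555 to 12745419 in dataset 2.

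Folds against a group at 0 UMIs use a floor of 3 UMIs over the group and are lower bounds. Gene positions are from a Gencode annotation of GRCm39 later than the M27 release used for counting, and promoter windows are from RefSeq GRCm38.p6. The text names the 8 members in each comparison, mucin-family genes with 10 UMIs in both pools of a cluster, the 3 most changed called partners, and the 3 most similar genes. Members and gene lists were chosen with earlier results of these data known.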

Additional observations from a re-analysis of the deposited data

Results flagged for a closer look

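Plates of 1 pool of dataset 2 were compared for each member over all kept cells, and 2 of 16 sets of 6 plates had a plate far from the others, where chance flags about 1 set in 20. The highest plate of pool T had 700.9 CPM of *Muc1*, against 637.5 in the next. The lowest plate of pool T had 347.6 CPM of *Muc6*, against 451.5 in the next.

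Wells that the authors left out of their cell sets also held mucin UMIs, above the 3 UMIs that a count of 0 allows. In the 1813 wells left out of dataset 1, with 3016503 UMIs, there were 1710 of *Muc5ac*, 321 of *Muc13*, 259 of *Muc6*, 214 of *Muc2*, 211 of *Muc1* and 6 of *Muc4*. In the 615 wells left out of dataset 2, with 1654145 UMIs, there were 276 of *Muc5ac*, 185 of *Muc1*, 153 of *Muc6*, 13 of *Muc13* and 5 of *Muc4*. Per 1000000 UMIs of these wells *Muc2* was at 70.9 in dataset 1, against 55.9 in the kept cells, and *Muc13* at 7.86 in dataset 2, against 0.172 in the kept cells.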

How the results depend on the processing

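When 1 of the 2 pools was left out, so that each cluster compared had 1 sum assumed to vary like the other clusters, the genes called in dataset 1 came to 55 and 60 for mature antrum against corpus pit, 71 and 81 for the pre-pit clusters, 85 and 187 for antrum maturation, 6 and 353 for corpus maturation, 0 and 2 for the difference between these steps (255 and 331 at an unadjusted p under 0.05), 2513 and 3315 for the duodenal-like cluster against mature antrum and 2378 and 3293 against mature corpus pit, and 849 and 970 for neck against pre-pit. In dataset 2 they came to 361 and 624 for mature pit against pre-pit, 1411 and 2261 for pre-pit against isthmus, 3296 and 3322 for chief against neck, 279 and 283 for neck cluster 12 and 1573 and 1695 for isthmus clusters 5 and 6, while 6241 to 6476 (neck) and 8538 to 8733 (parietal against isthmus) were nearer to the full counts.

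Without TMM factors 9464 genes were called for chief against neck, 2477 for neck cluster 12 and 1 for the difference between regions, which had 46 with no filter and 8 with the pool as a replicate block. With no filter on low counts, 9 member values passed that missed the threshold in the main fit. For *Muc2* these were the duodenal-like cluster against both mature pit clusters, neck against corpus pre-pit and the difference between regions. For *Muc4* they were parietal against isthmus, isthmus clusters 5 and 6 and neck cluster 12. The others were *Muc5ac* for neck cluster 12 and *Muc5b* for mature pit against pre-pit. The replicate block also turned *Muc1* in that difference to 0.0036 (adjusted p = 1.0) and *Muc4* in duodenal-like against mature antrum pit cells to 0.23 (adjusted p = 0.801), and called *Muc5b* for mature pit against pre-pit (1.71), *Muc4* for parietal against isthmus (-2.04) and for isthmus clusters 5 and 6 (-1.55) and *Muc2* for duodenal-like against mature corpus pit cells (2.59); it changed no other member's call. Relative to the fit with TMM, the median gene moved by over 0.1 without TMM in 7 of 15 comparisons, furthest for chief against neck (by -0.75, where 784 genes were higher and 8680 lower, against 2699 and 2586 with TMM) and parietal against isthmus (by -0.43, with 3148 and 7814 against 4933 and 5253). The share of higher among called genes also moved by over 10 percentage points for antrum maturation (227 higher and 803 lower, against 613 and 341), corpus maturation (255 and 651, against 427 and 381), duodenal-like against mature corpus pit (2016 and 2430, against 2404 and 1926), neck against pre-pit of dataset 1 (1856 and 767, against 1136 and 1208), mature pit against pre-pit (648 and 1194, against 781 and 682), pre-pit against isthmus (745 and 3703, against 1934 and 1924), neck cluster 12 (305 and 2172, against 454 and 648) and the difference between regions (0 and 1, against 3 and 1).

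Values of single members that changed sign, none of them called, were *Muc5b* for pre-pit against isthmus (-0.070) and *Muc1* and *Muc6* for neck cluster 12 (-0.037 and -0.067) without TMM, and *Muc4* for duodenal-like against mature antrum pit cells in DESeq2 (0.011) and without the cells of 10 or more UMIs (0.026). With each pool left out in turn, *Muc2* ran from -4.08 to 1.52 for mature antrum against corpus pit, from -1.82 to 1.65 for corpus maturation and from -1.37 to 7.50 for duodenal-like against mature antrum pit cells, and *Muc1* from -0.15 to 0.21 for the difference between regions. *Muc4* ran from -0.86 to 0.84 for duodenal-like against mature antrum pit cells, from -3.47 to 2.96 for neck cluster 12 and from -1.98 to 0.015 for isthmus clusters 5 and 6, where *Muc5ac* ran from -0.069 to 0.25. The called values that changed sign were *Muc1* for chief against neck without TMM (-0.46) and *Muc6* in the duodenal-like cluster over the pools left out (-2.24 to 5.25 against mature antrum and -3.11 to 8.07 against mature corpus pit cells; the negative values are without tube2). As a mean over cells the secreted share of dataset 2 pre-pit cells was 82.8% against 83.2%, and that of the duodenal-like cluster 4.11% against 6.41%. The cause was not tested. Statements are limited for *Muc2*, *Muc13* and *Muc20* in dataset 2 and for *Muc5b* and *Muc20* in dataset 1, which had under 50 UMIs in all. Dataset 2 held 139611402 UMIs and dataset 1 19906729, and the reason for these low counts was not tested.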
